A study of Mus musculus with 6 samples.

Results

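The 10 genes described here mark antibody-secreting cells, B cells, T cells and antigen-presenting cells: Igha, Ighm, Igkc, Jchain, Cd79a, Cd79b, Pou2af1, Ptprc, Cd3e and Cd74. They were chosen by gene symbol, without a cut on expression, and are 10 of the 47719 genes for which a level was deposited. Levels were read in whole prostates of 6 mice of the strain B6.129S4-Trp53tm3.1Tyj/J, about 3 months old, of which 2 were wildtype (Trp53+/+, mice 39 and 41), 2 heterozygous (Trp53+/R270H, mice 37 and 40) and 2 homozygous (Trp53R270H/R270H, mice 47 and 49) for the Trp53 R270H mutation. All 6 mice received 5 Gy of whole body irradiation and the prostates were taken 6 h later, so no unirradiated level is given here and each comparison is between genotypes after irradiation. The R270H allele was carried in the whole animal and not only in the prostate, so that the lymphocytes carried it too. Values are FPKM, fragment numbers scaled to transcript length and library size, which allows levels to be set beside each other between genes.

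An antibody is built from heavy chains and light chains. The class of the antibody is set by the heavy chain constant region: a B cell starts with IgM (Ighm) and can switch to IgG or IgA (Igha), while most mouse light chains are of the kappa type (Igkc). Plasma cells, the mature antibody-secreting cells, make very large amounts of these transcripts, and IgA and IgM are joined into polymers by the J chain (Jchain) and carried across mucosal and glandular epithelia by the receptor encoded by Pigr. Cd79a and Cd79b encode the signalling pair of the B cell receptor, Pou2af1 a transcriptional coactivator of B cells, Ptprc the phosphatase CD45 on all white blood cells, Cd3e a subunit of the T cell receptor complex, and Cd74 the invariant chain that guides MHC class II molecules in B cells, macrophages and dendritic cells. Lymphocytes are among the most radiation-sensitive cells of the body, and p53 is known for its part in their death after irradiation.

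The variable end of each antibody chain is encoded by a V segment, and many V segments are near copies. Igkv1-117 and Igkv1-110, which were among the kappa segments with the highest levels in these prostates, are shown here because they set the limit on how far reads can be assigned to a single segment. Igkv1-117 lies at chr6:68121046-68121827 and Igkv1-110 at chr6:68270485-68271267, both on the plus strand of GRCm38. Their germline transcripts (GENCODE M21) were identical at 97.5% of 401 aligned bases and differed at 10. The following stretches of 60 bases, bases 175 to 234 of the first transcript and bases 172 to 231 of the other, cover the CDR1 loop, with the 5 differing bases in capitals.
Igkv1-117: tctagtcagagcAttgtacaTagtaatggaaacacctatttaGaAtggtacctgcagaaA
Igkv1-110: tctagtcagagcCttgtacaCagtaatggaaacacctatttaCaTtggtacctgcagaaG
Levels of single V segments are therefore uncertain, also because a rearranged and mutated V segment departs from the germline sequence to which reads were aligned.

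The libraries differed in ways that bear on what follows. Trp53 itself lay between 17.3 and 21.4 FPKM in the 6 mice, which does not separate the genotypes since the allele is a base change, whereas the p53 target Cdkn1a was 109 and 101 FPKM in the wildtype, 40.5 and 41.4 in the heterozygous and 6.70 and 6.17 in the homozygous mice, in the order of the labels. Homozygous mouse 47 stood apart. Its probasin (Pbsn, a secretory protein of the prostate) was 257 FPKM against 7329 to 11512 in the other 5 mice, and the seminal vesicle secretory genes Svs4 and Svs5 were listed at 0 in this mouse only while Svs1, Svs3a and Svs6 were higher than in any other mouse. Differences of the homozygous mice are therefore also given without mouse 47, where mouse 49 alone stands for them. The number of reads behind each FPKM is not known. With 2 mice per genotype, no 2-sided exact permutation test of 1 genotype against another can go below p = 0.333. The exact permutation test used here over the 3 genotypes ignores their order and cannot go below p = 0.0667.

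Of the 10 genes, 6 had a mean of at least 1 FPKM and were tested (Igha, Ighm, Igkc, Jchain, Cd74 and Ptprc), and 4 lay below it and were too low to judge (Cd79a, Cd79b, Pou2af1 and Cd3e). None of the 10 was listed at 0 in any mouse.

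**Figure D1:**
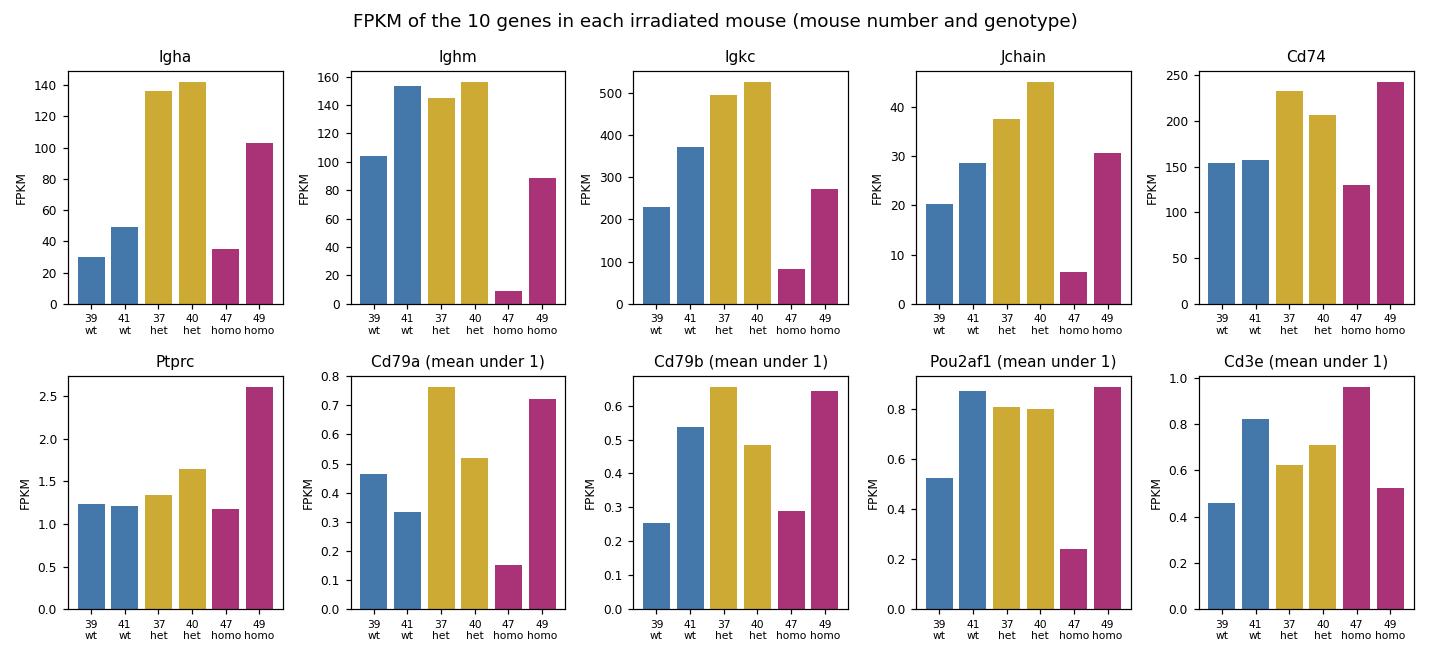
Level of each of the 10 genes in each mouse, in FPKM on a linear axis that starts at 0 and differs between panels; bars are single mice, labelled by mouse number and genotype (wt, wildtype; het, heterozygous; homo, homozygous). The antibody chain genes were highest in the 2 heterozygous mice or close to it, and Ighm, Igkc and Jchain were lowest in homozygous mouse 47.

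Igha, the IgA heavy chain constant region (ENSMUSG00000095079, chr12:113254830-113260236, minus strand), was 29.8 FPKM in mouse 39 and 48.9 in mouse 41 among the wildtype, 136 in mouse 37 and 142 in mouse 40 among the heterozygous, and 35.2 in mouse 47 and 103 in mouse 49 among the homozygous mice. Both heterozygous mice were above all 4 other mice, and the homozygous pair overlapped with the wildtype. The heterozygous minus wildtype difference was 1.86 on the log2(FPKM + 0.1) scale (SE 0.51, 95% interval 0.60 to 3.13), with an adjusted p of 0.475 in the limma fit over all tested genes. The homozygous minus wildtype difference was 0.66 (adjusted p = 0.533 by limma) and the homozygous minus heterozygous difference was -1.21 (adjusted p = 0.707 by limma), and without mouse 47 they were 1.43 and -0.43. Igha was the 1 gene of the 6 with an unadjusted p under 0.05 over the 3 genotypes, where 11.5% of all tested genes had one, and the 1 gene of the 6 with one between heterozygous and wildtype mice, where 6.87% had one.

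Ighm, the IgM constant region (ENSMUSG00000076617, chr12:113418558-113422730, minus strand), lies upstream of Igha in the same locus. It was 104 and 153 FPKM in wildtype mice 39 and 41, 145 and 156 in heterozygous mice 37 and 40, 8.88 in homozygous mouse 47 and 88.7 in homozygous mouse 49. Both homozygous mice were below the other 4, but they differed from each other more than any other pair of the same genotype did for this gene. The homozygous minus wildtype difference was -2.16 (SE 0.99, 95% interval -4.62 to 0.29, adjusted p = 0.321 by limma), and the homozygous minus heterozygous difference was -2.41 (adjusted p = 0.707 by limma). The heterozygous minus wildtype difference was 0.25 (adjusted p = 0.982 by limma). The size rested on mouse 47: without it the homozygous minus wildtype difference was -0.51 and the homozygous minus heterozygous difference -0.76. Without mouse 49, where mouse 47 alone stands for the homozygous mice and is assumed to vary like the other genotypes, the homozygous minus wildtype difference was -3.82 and passed the test (adjusted p = 0.0300 by limma), as did the homozygous minus heterozygous difference of -4.07 (adjusted p = 0.0469 by limma).

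Igkc, the kappa light chain constant region (ENSMUSG00000076609, chr6:70726435-70726966, plus strand), had the highest level of the 10 genes in 5 of the 6 mice. It was 228 and 371 FPKM in the wildtype, 495 and 526 in the heterozygous, and 83.5 (mouse 47) and 272 (mouse 49) in the homozygous mice. The heterozygous mice were above all others and mouse 47 below all others, with mouse 49 inside the wildtype range. The differences were 0.81 for heterozygous minus wildtype, -0.95 for homozygous minus wildtype and -1.76 for homozygous minus heterozygous mice (SE 0.56 each; adjusted p = 0.872, 0.419 and 0.707 by limma). Without mouse 47 the homozygous minus wildtype difference was -0.097. The homozygous minus heterozygous difference was then -0.90, with mouse 49 still below both heterozygous mice. Igkc was the 1 gene of the 6 with an unadjusted p under 0.05 between homozygous and heterozygous mice, where 6.39% of all tested genes had one.

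Jchain (ENSMUSG00000067149, chr5:88519809-88527891, minus strand) was 20.3 and 28.6 FPKM in the wildtype, 37.5 and 45.1 in the heterozygous, and 6.49 (mouse 47) and 30.6 (mouse 49) in the homozygous mice. As for Igkc, the heterozygous mice were highest and mouse 47 was lowest. The differences were 0.77 for heterozygous minus wildtype, -0.77 for homozygous minus wildtype and -1.54 for homozygous minus heterozygous mice (SE 0.68 each; adjusted p = 0.912, 0.582 and 0.707 by limma). Without mouse 47 the homozygous minus wildtype difference turned to 0.34 and the homozygous minus heterozygous difference was -0.43.

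Cd74 (ENSMUSG00000024610, chromosome 18) was 154 and 158 FPKM in the wildtype, 233 and 207 in the heterozygous, and 130 (mouse 47) and 243 (mouse 49) in the homozygous mice. The heterozygous mice were above the wildtype mice, and the homozygous mice were the lowest and the highest of the 6. The differences were 0.49 for heterozygous minus wildtype, 0.19 for homozygous minus wildtype and -0.30 for homozygous minus heterozygous mice (SE 0.30 each; adjusted p = 0.856, 0.756 and 0.760 by limma), and without mouse 47 the homozygous differences were 0.64 and 0.14.

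Ptprc (ENSMUSG00000026395, chr1:138062861-138175708, minus strand) was close to the limit of testing, at 1.24 and 1.22 FPKM in the wildtype, 1.34 and 1.65 in the heterozygous, and 1.18 (mouse 47) and 2.61 (mouse 49) in the homozygous mice. Mouse 49 was the highest and mouse 47 the lowest of the 6. The differences were 0.26, 0.49 and 0.23 for heterozygous minus wildtype, homozygous minus wildtype and homozygous minus heterozygous mice (SE 0.41 each; adjusted p = 0.960, 0.566 and 0.871 by limma). Without mouse 47 the homozygous differences were 1.03 and 0.77. Without mouse 49 the homozygous mice were represented by a value below both other genotypes, and those differences against wildtype and heterozygous mice were -0.06 and -0.31.

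**Figure D2:**
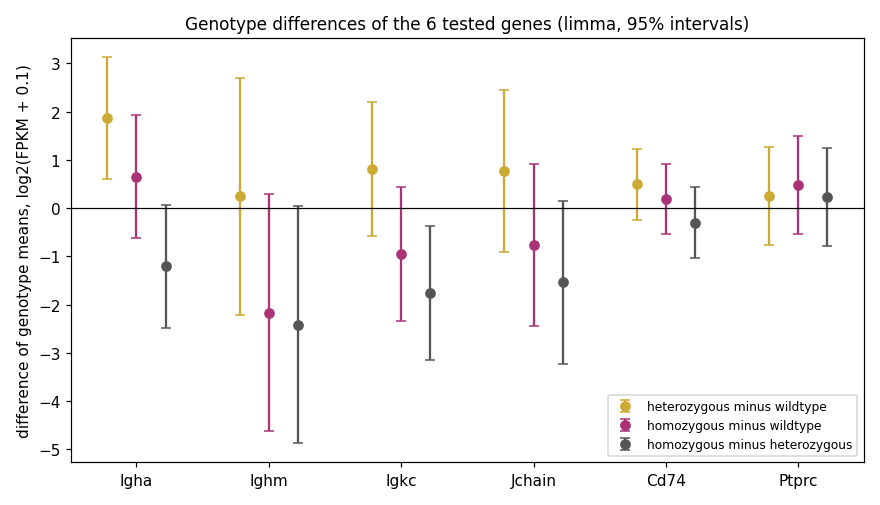
Differences between genotype means of the 6 tested genes on the log2(FPKM + 0.1) scale; points are limma estimates from 2 mice per genotype and bars are 95% intervals before adjustment for the number of genes. The intervals of Igha (heterozygous minus wildtype) and Igkc (homozygous minus heterozygous) leave out 0, and none of the 18 differences passed the adjusted threshold of 0.05.

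None of the 6 genes passed an adjusted p of 0.05 by limma in any of the 4 tests. Over all 13818 tested genes the share that passed was 0.101% for the 3 genotypes together, 0.0% for heterozygous against wildtype, 0.384% for homozygous against wildtype and 0.0145% for homozygous against heterozygous mice, so few genes of any kind passed with 2 mice per genotype. Unadjusted p-values under 0.05 numbered 1, 1, 0 and 1 of the 6 genes in these 4 tests. The 0 for homozygous against wildtype mice stood beside 18.0% of all genes.

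The direction was also read from whether the mice of 2 genotypes overlapped. In heterozygous against wildtype mice, 5 of the 6 genes (Igha, Igkc, Jchain, Cd74 and Ptprc) were higher in both heterozygous mice than in both wildtype mice, as were 19.2% of all tested genes. In homozygous against heterozygous mice, 4 of the 6 (Igha, Ighm, Igkc and Jchain) were lower without overlap, beside 24.1% of all genes, and none was higher, beside 18.0%. In homozygous against wildtype mice, Ighm was lower without overlap, beside 28.7% of all genes, and none was higher, beside 21.3%. Without mouse 47, Igha, Ighm, Igkc and Jchain were again lower in the remaining homozygous mouse than in both heterozygous mice, beside 41.1% of all genes, and Ighm lower than in both wildtype mice, beside 41.2%. However, 4 genes (Cd74, Ptprc, Jchain and Igha) were then higher than in the wildtype, beside 33.5%, and 2 (Cd74 and Ptprc) higher than in the heterozygous mice, beside 35.4%. The 6 genes are made by overlapping sets of cells, so they are not 6 independent observations, and in whole tissue fewer cells of a type and less RNA per cell cannot be told apart.

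The 4 genes below 1 FPKM are given by mouse in the order wildtype 39 and 41, heterozygous 37 and 40, homozygous 47 and 49. Cd79a (ENSMUSG00000003379, chr7:24897381-24902197) was 0.466, 0.332, 0.763, 0.519, 0.152 and 0.722 FPKM. Cd79b (ENSMUSG00000040592, chr11:106311341-106314762) was 0.254, 0.538, 0.655, 0.483, 0.290 and 0.643 FPKM. Both heterozygous mice were above both wildtype mice for Cd79a but not for Cd79b, and the homozygous mice lay far apart for both subunits. Pou2af1 (ENSMUSG00000032053, chr9:51213708-51240080) was 0.524, 0.872, 0.812, 0.801, 0.241 and 0.890 FPKM, with mouse 47 lowest, as for Igkc and Jchain. Cd3e (ENSMUSG00000032093, chr9:44998740-45009627) was 0.458, 0.821, 0.625, 0.709, 0.961 and 0.524 FPKM, and was the 1 gene of the 10 that was highest in mouse 47. At these levels, and without the read counts, a difference between genotypes was not detectable; when the filter was dropped, the adjusted p of these 4 genes in the 3 contrasts ran from 0.780 for Pou2af1 (homozygous against wildtype) to 1 for Cd3e (heterozygous against wildtype) by limma.

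The balance between antibody classes is a ratio within a mouse, and for IgA it lay closer together in mice of 1 genotype than the level of Igha did. Igha made up 20.6% and 21.2% of the summed heavy chain constant region FPKM in the wildtype, 46.8% and 46.0% in the heterozygous, and 77.1% (mouse 47) and 52.1% (mouse 49) in the homozygous mice. The IgA share was thus lowest in wildtype, intermediate in heterozygous and highest in homozygous mice with no overlap in these 6 values, with or without mouse 47. With all 6 mice, the pairs by genotype had the least spread within pairs of the 15 possible splits. The exact permutation test over the 3 genotypes gave p = 0.0667, the smallest it can give. That test does not use the order of the genotypes, so the order was not tested. Ighm ran the other way, at 71.9% and 66.6%, 49.6% and 50.7%, and 19.5% (mouse 47) and 44.9% (mouse 49). The IgG genes Ighg1, Ighg2b, Ighg2c and Ighg3 together were 7.31% and 12.1% in the wildtype, 3.52% and 3.22% in the heterozygous, and 3.14% and 2.80% in the homozygous mice.

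Set against the light chain, Igha per Igkc was 0.131 and 0.132 in the wildtype, 0.276 and 0.270 in the heterozygous, and 0.421 (mouse 47) and 0.378 (mouse 49) in the homozygous mice. The 2 mice of a genotype were close, and the ratio followed the number of R270H alleles even in mouse 47, whose summed heavy and light chain FPKM was 136 against 403 to 872 in the other 5 mice. Igkc itself was 88.5% and 89.1% of light chain FPKM in the wildtype, 94.1% and 93.3% in the heterozygous and 92.0% and 90.8% in the homozygous mice, the rest being lambda. Jchain per Igha was 0.681 and 0.584 in the wildtype, 0.275 and 0.317 in the heterozygous and 0.184 and 0.297 in the homozygous mice (exact permutation p = 0.133), whereas Jchain per Igkc ran from 0.0759 to 0.112 over all 6 mice with no order by genotype (exact permutation p = 0.667). Light per heavy chain FPKM ran from 1.52 to 1.99 (exact permutation p = 0.933).

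Over the 8 ratios tested, 5 reached the smallest p the design allows. Each of these 5 had a Benjamini-Hochberg adjusted p of 0.107 in this exact permutation test. The exact permutation test cannot go below p = 0.0667 here, so it could not have put any ratio under 0.05, whatever its values. The IgA share, the kappa share and Jchain per Igha were set with the gene lists, and the other 5 were added after their values had been seen. The ratios share their genes, so that they are not independent.

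**Figure D3:**
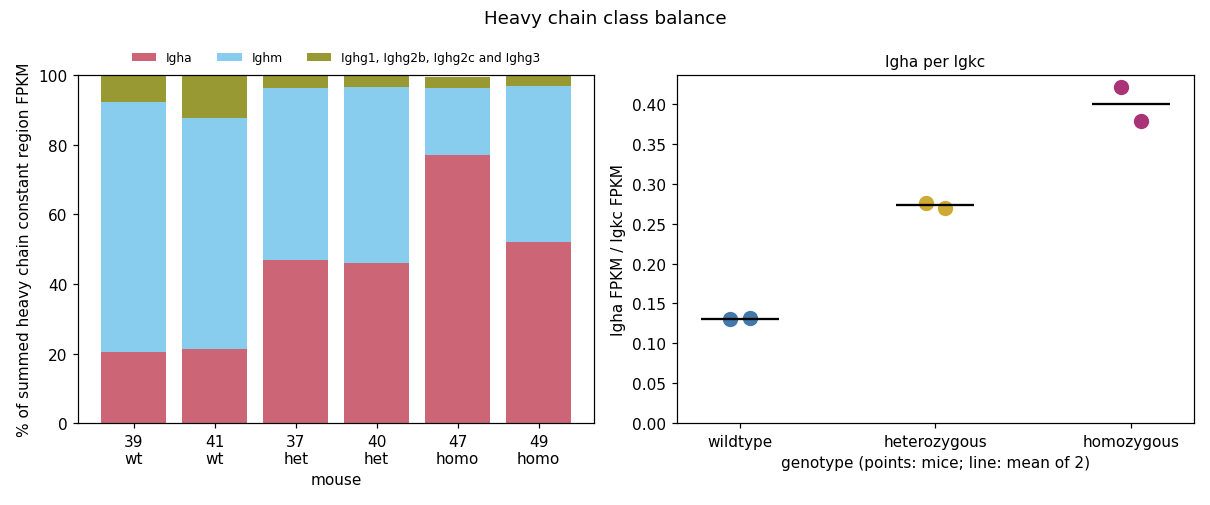
Left, share of Igha, Ighm and the 4 IgG genes in the summed heavy chain constant region FPKM of each mouse (%); right, Igha FPKM divided by Igkc FPKM, with points for mice and a line for the mean of 2. The Igha share was 20.6% and 21.2% in the wildtype and 46.0% or more in the other 4 mice, and Igha per Igkc was separated by genotype.

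The other antibody constant region genes were less even. Among the 12 constant region genes, 9 were tested, none passed an adjusted p of 0.05 in any contrast, 2 were higher and 1 lower without overlap in heterozygous than wildtype mice (19.2% and 19.9% of all tested genes), and 5 were lower without overlap in homozygous than wildtype mice (28.7% of all tested genes). The median difference of the 9 was -0.15 for heterozygous minus wildtype, -1.49 for homozygous minus wildtype and -1.75 for homozygous minus heterozygous mice, beside medians over all tested genes of -0.01, -0.04 and -0.03. Much of the size of the homozygous medians rested on mouse 47, and without it they were -0.51 and -0.54. The lambda constant region Iglc1 was 8.68 and 20.5 FPKM in the wildtype, 10.4 and 23.5 in the heterozygous and 5.03 and 14.4 in the homozygous mice, and overlapped between all genotypes. Iglc2 was 10.5 and 19.7, then 9.86 and 10.3, then 1.20 and 6.89 FPKM, and Iglc3 was 10.5 and 5.38, then 10.6 and 4.28, then 1.04 and 6.40 FPKM. The lambda genes are near copies of each other, so their split is uncertain. Ighe was listed at 0 in all 6 mice.

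V segments of many kinds were present in the antibody transcripts. Of 185 heavy chain V segments, 36 and 44 were at 1 FPKM or more in the wildtype, 44 and 42 in the heterozygous, and 2 (mouse 47) and 48 (mouse 49) in the homozygous mice. Of 160 kappa V segments, 42 and 51, 54 and 63, and 12 (mouse 47) and 48 (mouse 49) were. Wildtype and heterozygous mice overlapped in the number of heavy chain segments, whereas both heterozygous mice had more kappa segments than both wildtype mice, which was not tested. In mouse 47 the low number went with low summed V segment FPKM, 46.8 against 373 to 620 in the others.

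The leading kappa segment was Igkv14-126 in mouse 39 (16.2% of kappa V FPKM), Igkv1-117 in mouse 41 (10.8%), Igkv14-111 in mouse 37 (9.62%), Igkv3-12 in mouse 40 (7.47%), Igkv4-57 in mouse 47 (12.1%) and Igkv14-126 in mouse 49 (8.73%). The leading heavy chain segment was Ighv11-2 in mouse 39 (10.7% of heavy chain V FPKM), Ighv7-3 in mouse 41 (7.12%), Ighv6-3 in mouse 37 (9.77%), Ighv7-3 in mouse 40 (17.8%), Ighv1-81 in mouse 47 (25.1%) and Ighv1-55 in mouse 49 (7.33%). The leader therefore differed between mice of the same genotype in every case. In mouse 47 the leaders were at low levels. Ighv1-81 was 2.57 FPKM of a heavy chain V sum of 10.2 FPKM, and Igkv4-57 was 4.05 FPKM beside 3.93 FPKM for Igkv1-110. Some segments were high in 1 mouse only: Igkv14-111 was 37.4 FPKM in heterozygous mouse 37 and at most 8.46 in the other 5, and Igkv3-12 was 29.4 FPKM in heterozygous mouse 40 and at most 4.20 in the other 5. Of the 345 heavy chain and kappa segments, 143 reached 1 FPKM in at least 1 mouse, 43 in all 5 mice other than mouse 47, 8 in all 6, and 26 in 1 mouse only.

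The near copies Igkv1-117 and Igkv1-110, whose sequences are given above, did not keep a fixed ratio. Igkv1-117 was 21.1, 36.6, 15.2, 26.4, 2.82 and 13.4 FPKM in mice 39, 41, 37, 40, 47 and 49. Igkv1-110, which was chosen after its values had been seen, was 6.19, 22.9, 21.6, 16.9, 3.93 and 17.7 FPKM in the same mice. Igkv1-117 was the higher of the pair in both wildtype mice and in heterozygous mouse 40, and Igkv1-110 in the other 3 mice. The 34 D and J segments were listed at 0 in all 6 mice.

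**Figure D4:**
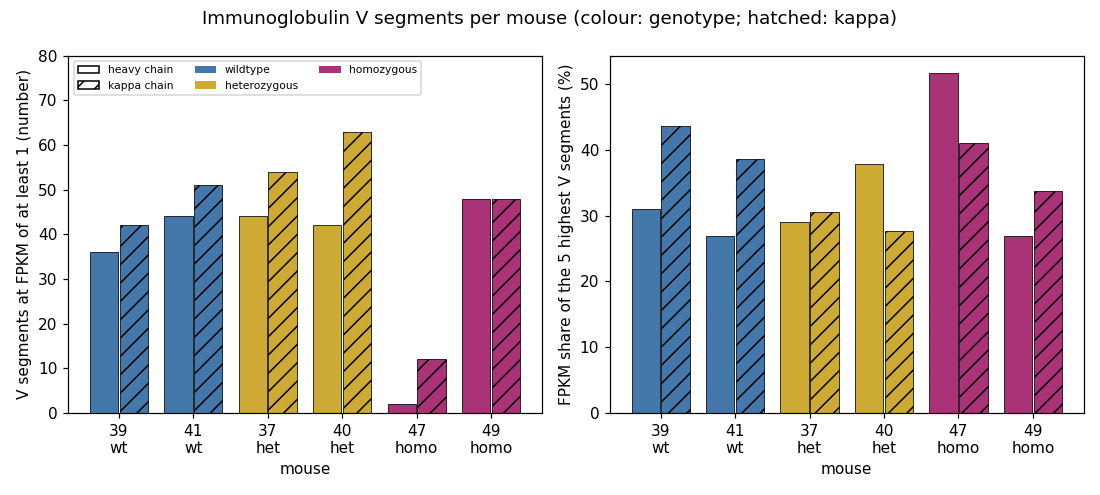
Left, number of heavy chain (plain bars) and kappa (hatched bars) V segments at 1 FPKM or more in each mouse; right, share of the 5 highest V segments in the summed V segment FPKM of that chain (%). Mouse 47 had 2 heavy chain and 12 kappa segments at 1 FPKM or more against 36 to 48 and 42 to 63 in the other 5 mice.

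Cd74 moved with the classical MHC class II genes, whose proteins it escorts. The 3 genes most like it over the 6 mice, by Pearson's r of log2(FPKM + 0.1) among all tested genes, were H2-Eb1 (r = 0.994), H2-Aa (r = 0.993) and H2-Ab1 (r = 0.992), followed by Fcrls and Tgfbi, which are known from macrophages (r = 0.992 and 0.991). H2-Aa, the class II alpha chain, was 72.1 and 73.5 FPKM in the wildtype, 105 and 93.5 in the heterozygous, and 63.7 (mouse 47) and 117 (mouse 49) in the homozygous mice. H2-Eb1, a class II beta chain, was 54.1 and 57.4, then 82.4 and 69.5, then 48.1 (mouse 47) and 81.5 (mouse 49) FPKM. The mice thus stood in the same arrangement as for Cd74, with the wildtype pair close together, the heterozygous pair above it, and the homozygous mice on either side of the wildtype pair.

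Class II promoters are known for a shared group of elements that includes the Y box, an inverted CCAAT sequence. The 120 bases before the RefSeq start of these 2 genes (GRCm38.p6) are shown because H2-Aa and H2-Eb1 were nearest to Cd74 among the genes with a promoter in the table used; H2-Aa is at chr17:34287824-34287943 on the minus strand and H2-Eb1 at chr17:34305747-34305866 on the plus strand, with CTGATTGG in capitals.
H2-Aa: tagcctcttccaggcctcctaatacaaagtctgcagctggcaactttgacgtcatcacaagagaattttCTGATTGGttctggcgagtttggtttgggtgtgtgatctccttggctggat
H2-Eb1: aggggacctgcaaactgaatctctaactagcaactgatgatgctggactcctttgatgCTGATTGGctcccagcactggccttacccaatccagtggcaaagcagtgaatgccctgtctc
The capitals begin 51 bases before the start in H2-Aa and 62 bases before it in H2-Eb1. CTGATTGG or its other strand CCAATCAG, which contains the shorter ATTGG or CCAAT, was found in 4.10% of 32851 promoters of 300 bases, from 250 bases before to 50 bases after the start, and ATTGG or CCAAT in 37.4%. Cd74 itself was not searched for these sequences. Among the rest of the 10 genes, Jchain, Cd79a, Ptprc, Cd3e and Pou2af1 had a promoter in the set used. None of these promoters held CTGATTGG. None held the octamer ATGCAAAT or its other strand ATTTGCAT, found in 1.74% of promoters.

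Class II genes lay higher in heterozygous than wildtype mice where they could be tested. The MHC class II list of 11 genes includes Cd74 itself, which is 1 of its 7 tested genes. All 7 were higher in heterozygous than wildtype mice without overlap, beside 19.2% of all tested genes. Their median difference was 0.44, and none passed an adjusted p of 0.05. In homozygous minus wildtype mice the median was 0.19 and 1 of the 7 was higher without overlap, beside 21.3% of all tested genes; without mouse 47 the median was 0.64. The 4 genes below a mean of 1 FPKM were not tested, and among them Ciita, the class II transactivator, was 0.536 and 0.437 FPKM in the wildtype and 0.468 and 0.470 in the heterozygous mice. Genes of macrophages and dendritic cells stood beside them, with 11 of 14 tested genes higher in heterozygous than wildtype mice without overlap, beside the same 19.2%, and a median difference of 0.41. In homozygous minus wildtype mice their median was -0.09 and 1 of the 14 was higher without overlap, beside 21.3%. Without mouse 47 the median was 0.58 and 12 of the 14 were higher than in both wildtype mice, beside 33.5%. Of these 14 genes, C1qa, a complement subunit made by macrophages, was 34.2 and 34.3 FPKM in the wildtype, 55.0 and 43.1 in the heterozygous, and 22.6 (mouse 47) and 47.4 (mouse 49) in the homozygous mice. Whether Cd74 followed macrophages, dendritic cells or B cells was not tested; the B cell gene Ms4a1 was at 0.0187 to 0.658 FPKM in the 6 mice.

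Plasma cell genes other than those of antibodies were mixed. Of the 14 on that list, 8 were tested and none passed an adjusted p of 0.05. In heterozygous against wildtype mice 1 (Jchain) was higher without overlap, beside 19.2% of all tested genes, and none was lower, beside 19.9%. In homozygous against wildtype mice 4 were lower and 1 (Eaf2) higher without overlap, beside 28.7% and 21.3%. In homozygous against heterozygous mice 4 were lower, beside 24.1%, and none was higher, beside 18.0%. Xbp1, which drives the secretory programme and is also made by secretory epithelium, was between 144 and 168 FPKM in all 6 mice. Derl3, of the degradation machinery of the endoplasmic reticulum, was 123 and 174 FPKM in the wildtype, 203 and 146 in the heterozygous, and 55.7 (mouse 47) and 89.2 (mouse 49) in the homozygous mice, with the homozygous mice below all others. Its mean of 132 FPKM stood above those of Jchain (28.1) and Mzb1 (2.15) on the same list, and which cells made Derl3 was not tested. Txndc5, a protein disulfide isomerase family member, ranged from 90.2 to 110 FPKM.

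B and T cell genes were low. On the B cell list of 23 genes, 18 were below a mean of 1 FPKM. The other 5 were tested and none passed an adjusted p of 0.05. Of these 5, 2 were higher and 1 lower without overlap in heterozygous than wildtype mice, beside 19.2% and 19.9% of all tested genes. The counts for homozygous against wildtype mice were also 2 and 1, beside 21.3% and 28.7%. Blnk, an adaptor of the B cell receptor, was an exception in level, at 58.1 and 60.4 FPKM in the wildtype, 49.8 and 40.4 in the heterozygous and 29.3 and 37.0 in the homozygous mice, with each genotype below the one before it without overlap. Cd72, also on the list, ran the other way without overlap, at 0.99 and 1.58, then 1.60 and 1.90, then 2.59 and 2.87 FPKM. In homozygous against heterozygous mice, 24.1% of all tested genes were lower and 18.0% higher without overlap. The other tested genes of highest level were Ebf1 (2.93 to 4.52 FPKM) and Cd37 (1.59 to 3.51 FPKM). Unlike Blnk, Cd79a and Cd79b did not have their highest levels in the wildtype mice.

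On the T and NK cell list of 31 genes, 26 were below a mean of 1 FPKM; 5 were tested, none passed an adjusted p of 0.05 and none was free of overlap between heterozygous and wildtype or between homozygous and wildtype mice. The 3 highest were Thy1 (13.2 to 25.3 FPKM), which fibroblasts and nerves also make, Tcf7 (3.54 to 10.4 FPKM) and Nkg7 (1.18 to 2.06 FPKM). Of the partners of Cd3e in the T cell receptor complex, Cd3g was 2.35 FPKM in mouse 47 and 0.435 to 0.704 in the other 5 mice. Cd247 was 1.08 in mouse 47 and 0.242 to 0.526 in the others, whereas Cd3d was 0.0866 to 0.325 with mouse 47 inside that range. These partners had means below 1 FPKM and were too low to judge. Other low genes of the list were lowest in mouse 47, among them Cd28 (0.0936 FPKM, against 0.344 to 0.534 in the others) and Cd2 (0.296 FPKM).

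Of the 17 pan-leukocyte genes, Ptprc included, 12 were tested and none passed an adjusted p of 0.05. In heterozygous against wildtype mice 8 were higher without overlap, beside 19.2% of all tested genes. In homozygous against wildtype mice 5 were higher and 1 lower without overlap, beside 21.3% and 28.7%. Without mouse 47, 11 of the 12 were higher than in both wildtype mice, beside 33.5%, and 1 was lower, beside 41.2%. The homozygous minus wildtype median was 0.30, and 0.79 without mouse 47. Lcp1 ranged from 35.7 to 41.5 FPKM and Lsp1 from 14.4 to 27.0 FPKM. Cd52, which epithelium of the male genital tract also makes, was 195 and 729 FPKM in the wildtype, 772 and 653 in the heterozygous, and 2782 (mouse 47) and 840 (mouse 49) in the homozygous mice. It was highest in the mouse in which Ptprc was lowest, so that it did not follow CD45 in these prostates.

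Of 18 genes for lymphocyte homing and survival, 13 were tested, 5 were higher and 3 lower in heterozygous than wildtype mice without overlap, beside 19.2% and 19.9% of all tested genes, and none passed an adjusted p of 0.05. Pigr, the receptor that carries IgA and IgM across epithelium, was 348 and 101 FPKM in the wildtype, 172 and 178 in the heterozygous, and 112 and 99.3 in the homozygous mice, and so did not follow Igha. Cxcl12, which retains plasma cells in tissue, ranged from 33.9 to 53.4 FPKM, and Ccl21a, which attracts naive lymphocytes, from 7.63 FPKM in mouse 47 to 27.3 in mouse 37.

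**Figure D5:**
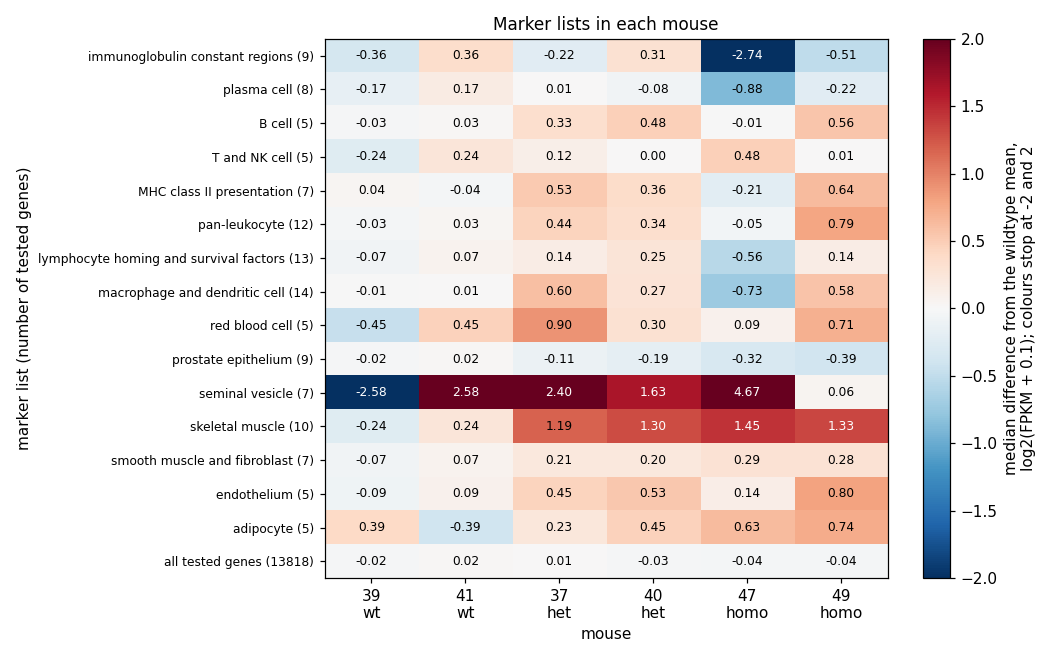
Median, over the tested genes of each marker list, of the difference from the wildtype mean on the log2(FPKM + 0.1) scale in each mouse; each cell is 1 mouse, the number in brackets is the number of tested genes, and colours stop at -2 and 2. The antibody constant regions were at -2.74 in mouse 47, and skeletal muscle genes were between 1.19 and 1.45 in all 4 heterozygous and homozygous mice.

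Markers of other tissues moved between the same mice. All 10 skeletal muscle genes were higher without overlap in heterozygous and in homozygous than in wildtype mice, beside 19.2% and 21.3% of all tested genes. Their median differences were 1.23 and 1.38 (1.33 for homozygous mice without mouse 47). Acta1, skeletal muscle actin, was 460 and 724 FPKM in the wildtype and 1296 to 1532 in the other 4 mice. The 9 genes of prostate epithelium had medians of -0.12 and -0.25 (-0.39 for homozygous mice without mouse 47). Of these, 3 were lower in heterozygous than wildtype mice without overlap, beside 19.9% of all tested genes. In homozygous against wildtype mice 4 were lower and 1 higher without overlap, beside 28.7% and 21.3%. Without mouse 47, 5 were lower and 1 higher, beside 41.2% and 33.5%. Of the 7 smooth muscle and fibroblast genes 4 were higher without overlap in heterozygous and 2 in homozygous than in wildtype mice, of the 5 endothelial genes 3 and 3, and of the 5 adipocyte genes 1 and 4, beside 19.2% and 21.3% of all tested genes. Without mouse 47 the homozygous counts were 5, 4 and 4, beside 33.5%. Of the 7 seminal vesicle genes 3 were higher without overlap in heterozygous than wildtype mice, beside 19.2% of all tested genes. Svs2 was the 1 gene of all 15 lists that passed an adjusted p of 0.05 (homozygous against wildtype, by limma), but it was listed at exactly 0 in both homozygous mice while other seminal vesicle genes were high in them, and without read counts such a 0 can be a failed estimate and is not read as a low level. The 5 red blood cell genes, a measure of blood left in the tissue, overlapped between all genotypes; Hbb-bs was 188 and 333 FPKM in the wildtype, 510 and 309 in the heterozygous and 230 and 451 in the homozygous mice. In mouse 47 the summed FPKM was 0.0874 of the wildtype mean for the prostate epithelium list, most of which is Pbsn, and 0.651 for the 8 other genes of that list. It was 0.260 for the antibody constant regions and 0.600 for macrophages and dendritic cells, and 2.75 for skeletal muscle. The part of tissue composition in the levels of the 10 genes was not tested.

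For 3 further genes the most similar profiles over the 6 mice held few lymphocyte genes. Igkc was nearest to Rhobtb2 (r = 0.991), the V segments Ighv1-78 (r = 0.990) and Igkv8-24 (r = 0.988), Cytl1 (r = 0.988) and Lamb3 (r = 0.984). Ptprc was nearest to Mga (r = 0.995), Lrp4, Abr, Scn7a and Adgra2, and Cd79b to Lamc3 (r = 0.990), Gdf10, Atic, E2f6 and Mmp23. Each r is over 6 mice that share genotype and tissue makeup, is the highest of 13818 and is a description only. None of the 5 nearest genes of Ptprc or Cd79b was on a leukocyte list, in contrast with Cd74.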

How the data were processed

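RNA from the prostates of 6 irradiated mice was sequenced as stranded mRNA libraries. Per the labels, the reads were processed with bcl2fastq, HISAT, Cufflinks and Cuffnorm on mm10 (GRCm38); versions and annotation are not given in the sources used here. The authors deposited 1 table of FPKM per mouse, and these FPKM values were used as deposited. The paper gives only a lower bound on the reads per sample. Reads per gene and the exact depth of each library are unknown, so no counting interval is given. Relative to mouse 39, fragment numbers estimated from the lowest FPKM values ran from 0.79 in mouse 47 to 1.07 in mouse 49. The deposited levels summed to 518671 to 636407 FPKM per mouse, with 13452 to 13827 genes of at least 1 FPKM.

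Of 47719 genes, the 13818 with a mean of at least 1 FPKM over the 6 mice were tested with limma 3.58.1 (R 4.3.3) on log2(FPKM + 0.1), with a term for the 3 genotypes, a variance trend, a moderated F test and 3 contrasts. Benjamini-Hochberg adjustment ran over all tested genes with a threshold of 0.05. Fold changes on this scale understate those of low genes. Ratios within a mouse were compared by an exact permutation test over the 15 ways to form 3 pairs. A gene did not overlap when both mice of 1 genotype lay above both of the other. Nothing says that litters or days were shared. The p-values rest on the spread between the 2 mice of a genotype, pooled over the 3 genotypes. In limma they also draw on the spread of other genes.

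The 10 genes were described in every mouse, and from each of 15 marker lists (191 genes) the 3 other genes with the highest mean FPKM were eligible for naming, with any gene that passed a test; further genes were named after their values had been seen. The genes and lists were chosen with earlier results of these data known. Alternatives were other pseudocounts, filters and scalings and leaving out each mouse. Promoters came from RefSeq (GRCm38.p6) and V segment transcripts from GENCODE M21.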

Additional observations from a re-analysis of the deposited data

How the results depend on the processing

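Of 213 alternative values of the 18 member differences, 204 kept their direction and side of the threshold, including all 105 that left out no mouse (other pseudocounts, filters, median scaling and quantile normalization); Ptprc has no value at a mean FPKM of at least 5. Leaving out 1 mouse turned 7 directions. Cd74 ran from -0.75 to 0.14 in homozygous minus heterozygous mice (positive without mouse 47) and from -0.26 to 0.64 in homozygous minus wildtype mice (negative without mouse 49). In homozygous minus wildtype mice, Igha ran from -0.12 to 1.43 and Ptprc from -0.056 to 1.03 (negative without mouse 49), and Jchain from -1.88 to 0.34 (positive without mouse 47). Ptprc in homozygous minus heterozygous mice ran from -0.31 (without mouse 49) to 0.77, and Ighm in heterozygous minus wildtype mice from -0.027 (without mouse 39) to 0.53. Ighm passed without mouse 49 (-3.82 and -4.07, adjusted p = 0.0300 and 0.0469 by limma, over its alternatives up to 0.584 and 1), so that genes called ran from 0 to 1 of 6 in both homozygous contrasts; with 1 homozygous mouse left, that mouse is assumed to vary like the others. Members higher without overlap went from 0 to 4 (homozygous against wildtype) and from 0 to 2 (homozygous against heterozygous) without mouse 47, a setting added after seeing the data.

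Over all genes, the 14 called for the 3 genotypes became 3 with no filter, 4 with quantile normalization and 0 to 9 on leaving out a mouse. The 53 for homozygous against wildtype became 4 with no filter and 4 to 96 on leaving out a mouse. The 2 for homozygous against heterozygous became 1 with a pseudocount of 0.01, 1 with a mean FPKM of at least 5 and 0 to 40 on leaving out a mouse, and the 0 for heterozygous against wildtype became 0 to 1. Apart from fewer mice or other genes tested, the cause was not tested. No paired analysis was possible because the genotypes share no animal number. List values without mouse 47 and the epithelium sum without Pbsn were also added after seeing the data. The precision is limited by 2 mice per genotype, and counting error is unknown without read counts.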
